A study of Chlorocebus sabaeus with 45 samples.

Results

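How far 15 vervet monkeys differed from each other in whole-blood gene expression was described at each of 3 time points. The members are the 12968 genes, of 33994 gene rows in the expression files, whose mean FPKM (fragments counted per gene, divided by gene length and by library size) over all 45 libraries was at least 1. For each gene the spread was the standard deviation (SD) of log2(FPKM + 0.1) over the 15 animals, taken separately on day 0, day 3 and day 14 after scaling the libraries to each other. An SD of 1 means that animals typically lay a doubling or a halving from the mean of their day. The spreads, not the mean levels, were compared between the days.

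The animals were wild-born juvenile male vervets (Chlorocebus sabaeus), each taken from a different troop, and each gave 1 sample per time point. The day 0 blood was drawn in the field soon after trapping, under ketamine and xylazine. The day 3 and day 14 blood was drawn from the same animals during quarantine in individual housing, under dexmedetomidine and midazolam. The place of sampling, the sedatives and the time point therefore changed together and cannot be told apart, and no group of animals stayed in the field.

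Whole blood mixes red cell precursors, platelets, granulocytes, monocytes and lymphocytes, so the transcript level of a gene depends on how many cells of each type a sample holds and on how active the gene is in them. Neutrophil numbers and inflammatory transcripts can move within hours, for example with infection, exertion or adrenaline, whereas heat shock genes are switched on by heat and by damaged proteins. Other genes differ between individuals for life, because regulatory or gene copy variants are inherited. In bulk blood, fewer cells of a type and less RNA per cell cannot be told apart.

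The libraries held between 13216280 and 31469337 counted fragments, with medians of 22963984, 22754349 and 22758495 on days 0, 3 and 14. The median gene had 462 fragments in a library. Counting error alone would give the median gene an SD of 0.0687, 0.0675 and 0.0752 on days 0, 3 and 14, and it made up more than 50% of the variance for 175, 214 and 412 genes. Of 16 muscle, skin and connective tissue genes, 14 had a mean FPKM under 1, the highest of them at 0.382. DES and TNNT3 had means of 3.44 and 1.23. In single libraries COL3A1 reached 5.06 FPKM and COL1A2 1.09 FPKM. A few libraries stood apart from the rest of their day. The mean absolute deviation of a library from the median profile of its day had a median of 0.339, 0.338 and 0.305 on days 0, 3 and 14, and it was over 1.5 times that median for animal 7 (0.604), animal 11 (0.547) and animal 15 (0.608) on day 0, animal 8 (0.60) on day 3 and animal 15 (0.489) on day 14. The day 3 library of animal 8 also had the lowest RNA integrity number (a score of how intact the RNA is) of all libraries. In no animal was this number higher on day 0 than on day 14, and in most it was lower, so RNA integrity changed with the day. Counts with the number regressed out are given below. On day 0 the scaling factors of animals 7, 11 and 15 were 0.723, 0.892 and 0.788, whereas those of the other 12 animals lay between 1.01 and 1.39. The factors also differed on the later days. They ranged from 0.682 (animal 7) to 1.27 (animal 8) on day 3 and from 0.523 (animal 15) to 1.27 (animal 4) on day 14. The part of this difference in the results was not tested beyond the values given without scaling and without these animals.

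The median gene had an SD of 0.384, 0.358 and 0.326 on days 0, 3 and 14, which correspond to 1.3-fold, 1.28-fold and 1.25-fold departures from the mean. The 95th percentile of the SD was 1.12, 0.95 and 0.959. On day 0, 911 genes (7.02%) had an SD of at least 1, against 525 genes (4.05%) on day 3 and 555 genes (4.28%) on day 14. The SD was lower on day 3 than on day 0 for 59.3% of the genes, lower on day 14 than on day 0 for 65.3%, and lower on day 14 than on day 3 for 57.4%. It was highest on day 0 for 6365 genes, highest on day 3 for 3888 and highest on day 14 for 2715. The share of genes with a lower SD on day 14 than on day 0 was larger among abundant genes: 59.5% of the 4437 genes with a mean FPKM from 1 to 5, and 77.3% of the 596 genes with a mean FPKM of 100 or more.

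**Figure D1:**
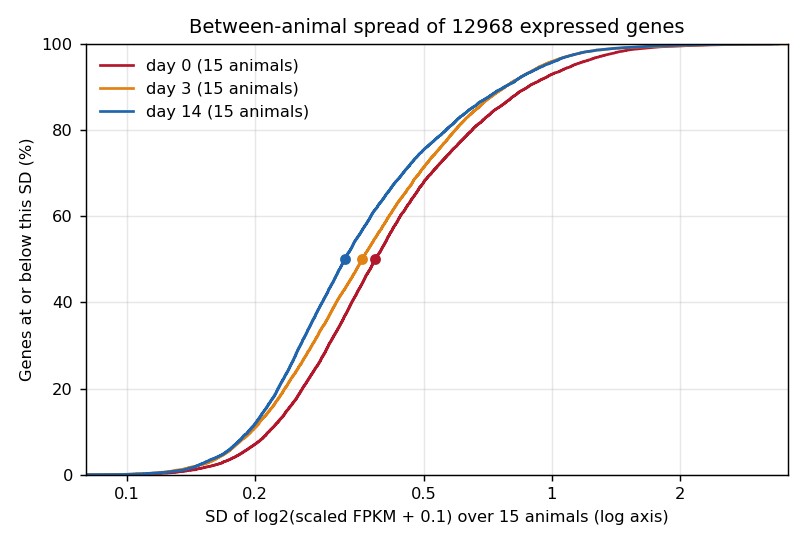
Cumulative share of the 12968 genes (y axis, %) against the SD of log2(scaled FPKM + 0.1) over the 15 animals (x axis, log scale), with 1 curve per day and a dot at each median. The medians were 0.384, 0.358 and 0.326 on days 0, 3 and 14, and the day 0 curve lies to the right of the others up to an SD of about 2.

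The general narrowing was not larger than exchanging the days within animals could give. The median log2 ratio of the spreads was -0.116 for day 3 vs. day 0, -0.191 for day 14 vs. day 0 and -0.075 for day 14 vs. day 3, with p = 0.472, 0.175 and 0.596 in a two-sided exact permutation test over all 32768 exchanges within the 15 animals (Benjamini-Hochberg adjusted p = 0.596, 0.524 and 0.596). Without scaling between libraries the median log2 ratios were -0.137, 0.012 and 0.138, so that the direction of the last 2 comparisons turned. Without animals 7, 8, 11 and 15 the median SD was 0.313, 0.317 and 0.308 on days 0, 3 and 14 over the remaining 11 animals. Leaving out the animals that deviate most lowers the spread of the days on which they deviate by construction.

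Single genes were tested with limma on the absolute deviations of the animals from the median of their day. Between day 3 and day 0, 4 genes had a narrower spread on the later day at an adjusted p under 0.05 (0.0308% of the genes tested), and none had a wider one. Between day 14 and day 0, 6 genes were narrower (0.0463%) and none was wider. Between day 14 and day 3 no gene passed (0%), while 375 genes had an unadjusted p under 0.05 and the Pitman-Morgan test for paired variances called 1 gene. At an unadjusted p under 0.05, 8.44% of all genes were narrower and 1.47% wider on day 3 than on day 0, 9.35% narrower and 1.59% wider on day 14 than on day 0, and 1.68% narrower and 1.21% wider on day 14 than on day 3. The adjusted counts depended on single animals: without animal 11, and likewise without animal 13, no gene passed the limma test in any comparison, whereas without animal 10 the count for day 14 vs. day 0 was 135. The 1094 genes that were narrower at an unadjusted p under 0.05 on day 3 than on day 0 became 716 without animal 11 and 658 without animal 15, and the 1212 for day 14 vs. day 0 became 744 without animal 11. For day 14 vs. day 3 the 218 narrower genes became 94 and 110 without animals 2 and 8, and 395 and 402 without animals 6 and 15.

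The genes that passed are described in 2 groups, the heat shock genes and the rest, and some animals were high in the field for genes of both. The same animals were sampled on each day, and with animal as a replicate block in the limma fit HSPA1B (adjusted p = 0.0408 for day 3 and 0.0402 for day 14 vs. day 0), H2BC26 (0.0408 and 0.0402) and OSM (0.0463 for day 14) still passed. HSPA1A (0.0624 and 0.0551), PPP1R3D (0.0936 and 0.0551) and DNAJA4 (0.0879 for day 14) did not pass with the block. HSPA1A and HSPA1B encode the stress-inducible chaperone HSP70, and DNAJA4 encodes a co-chaperone of the same system. HSPA1A and HSPA1B are near-identical copies whose reads can be split between them, so their separate values are uncertain. HSPA1B ranged from 0.879 to 141 FPKM on day 0 with a median of 5.0, from 1.1 to 3.86 with a median of 2.2 on day 3, and from 1.04 to 3.05 with a median of 1.51 on day 14. Animal 10 was the highest on day 0, followed by animal 13 (41.2 FPKM), animal 11 (39.2) and animal 3 (24.2), and the remaining 11 animals had 8.08 FPKM or less. All 4 of these animals were at or below 3.86 FPKM on both later days. The SD was 2.15, 0.466 and 0.437 on days 0, 3 and 14, a log2 ratio of -2.21 ± 0.42 (jackknife SE over 15 animals, limma adjusted p = 0.01) for day 3 vs. day 0 and -2.30 ± 0.41 (adjusted p = 0.0128) for day 14 vs. day 0.

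HSPA1A ranged from 2.57 to 137 FPKM on day 0 with a median of 6.84, from 2.13 to 6.64 on day 3 and from 1.36 to 5.45 on day 14. On day 0 animals 10, 11, 7, 13, 15 and 3 were the highest, at 18.9 FPKM or more, and the other 9 animals had 8.82 FPKM or less. Of these 6 animals, 7, 11 and 15 were also among the highest for OSM and PPP1R3D. Its log2 ratio of SDs was -2.04 ± 0.45 (limma adjusted p = 0.0319) for day 3 vs. day 0 and -1.81 ± 0.46 (adjusted p = 0.031) for day 14 vs. day 0. DNAJA4 ranged from 6.31 to 60.7 FPKM on day 0, with animal 10 again the highest and animals 13, 3 and 11 at 22.8, 18.8 and 17.7 FPKM. On the later days all 15 animals lay between 5.39 and 9.75 FPKM. The spread of DNAJA4 passed for day 14 vs. day 0 (log2 ratio -2.24 ± 0.63, limma adjusted p = 0.0447) and not for day 3 vs. day 0 (-2.20 ± 0.63, adjusted p = 0.0612).

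The list of 25 measured heat shock and unfolded protein genes had a median SD of 0.791, 0.344 and 0.318 on days 0, 3 and 14. At an unadjusted p under 0.05, 13 of the 25 were narrower on day 3 (1 was wider) and 13 were narrower on day 14 than on day 0, beside 8.44% and 9.35% of all genes. These counts fell to 5 and 6 without animal 10 and to 7 and 9 without animal 11. The mean log2 level of the list was 2.168 above the median animal in animal 10 on day 0, 1.13 above it in animal 11, 0.89 in animal 13 and 0.68 in animal 3. On day 3 the 15 animals lay from -0.41 to 0.13 around their median, and on day 14 from -0.40 to 0.22. HSPH1 (an HSP110 chaperone) and DNAJB1 (an HSP40 co-chaperone) were picked after their values were seen. HSPH1 ranged from 23.2 to 663 FPKM on day 0 and from 27.3 to 66.9 FPKM over both later days, and DNAJB1 from 16 to 341 FPKM on day 0 and from 17.2 to 32.1 FPKM over both later days. Both missed the threshold for day 14 vs. day 0 (limma adjusted p = 0.0726 for each). Without animals 7, 8, 11 and 15 the list kept a median SD of 0.837 on day 0, against 0.312 on day 3 and 0.328 on day 14, and 11 genes were narrower at an unadjusted p under 0.05 in each comparison with day 0. Over all 12968 genes 225 and 237 were narrower at that p in these animals, against 1094 and 1212 with all 15. In those 11 animals DNAJA4, HSPA1B and HSPH1 passed for day 14 vs. day 0 (limma adjusted p = 0.0299, 0.0299 and 0.0446), DNAJA4 passed for day 3 vs. day 0 (0.024), HSPA1B did not (0.0799), and HSPA1A passed neither comparison (0.312 and 0.265).

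**Figure D2:**
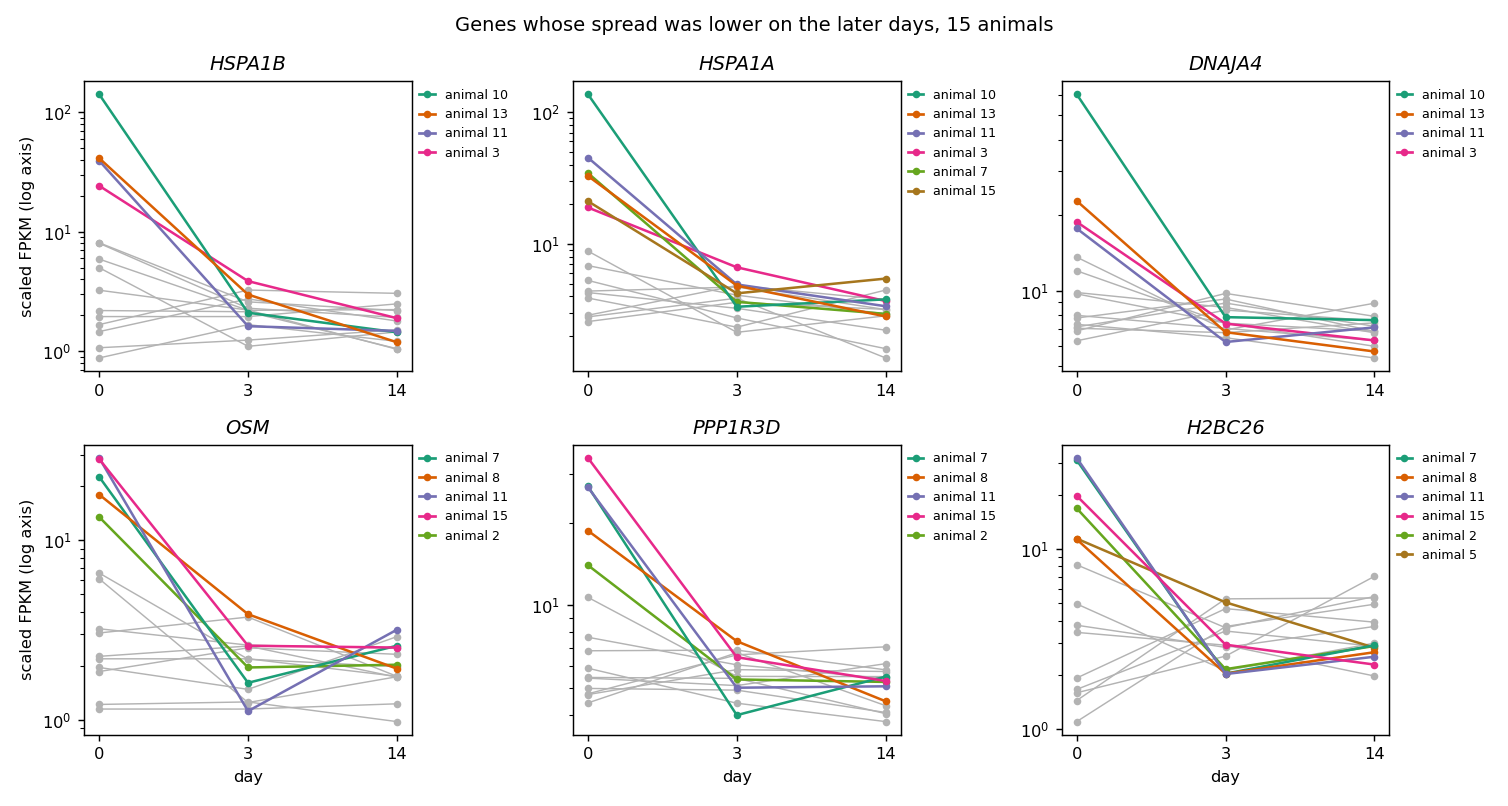
Scaled FPKM (y axis, log scale) on day 0, day 3 and day 14 (x axis, not to scale in time) for the 6 genes whose spread was narrower on a later day at a limma adjusted p under 0.05. Each line is 1 of 15 animals, with the highest animals of day 0 coloured (10, 13, 11 and 3 for HSPA1B and DNAJA4, these and 7 and 15 for HSPA1A, 7, 8, 11, 15 and 2 for OSM and PPP1R3D, and these and 5 for H2BC26), and the coloured lines join the others on the later days.

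The other genes that passed were OSM, PPP1R3D and H2BC26. OSM (oncostatin M, an inflammatory cytokine of the interleukin-6 family) and H2BC26 (a histone H2B gene, listed in the files only by its gene number) fell outside the rule for naming genes and were named after their values were seen. OSM ranged from 1.15 to 28.8 FPKM on day 0 with a median of 3.22, from 1.12 to 3.88 on day 3 and from 0.979 to 3.18 on day 14. Animals 11, 15, 7, 8 and 2 had 28.8, 28.4, 22.6, 18.0 and 13.5 FPKM on day 0, and the other 10 animals had 6.58 or less. The log2 ratio of the SDs of OSM was -1.94 ± 0.30 for day 14 vs. day 0 (limma adjusted p = 0.031) and -1.55 ± 0.23 for day 3 vs. day 0, which did not pass (adjusted p = 0.141).

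PPP1R3D, a subunit that directs protein phosphatase 1 to glycogen, ranged from 4.42 to 34.4 FPKM on day 0, from 3.99 to 7.41 on day 3 and from 3.78 to 7.07 on day 14. The same animals were highest on day 0, at 34.4 FPKM in animal 15, 27.1 in animal 7, 26.9 in animal 11, 18.7 in animal 8 and 14.0 in animal 2. Its log2 ratio of SDs was -2.08 ± 0.28 for day 3 vs. day 0 (limma adjusted p = 0.0352) and -2.07 ± 0.36 for day 14 vs. day 0 (adjusted p = 0.031). H2BC26 ranged from 1.1 to 32 FPKM on day 0, highest in animals 11, 7, 15, 2, 5 and 8, and from 1.97 to 7.04 FPKM over both later days, with log2 ratios of -1.79 ± 0.24 (adjusted p = 0.0352) and -1.69 ± 0.30 (adjusted p = 0.031). Its median library had 63 fragments, so it was counted less precisely than the others. When 1 animal at a time was left out, the log2 ratios of the 6 genes stayed between -2.505 and -1.523 in the comparisons they had passed, but the calls were less stable. Of the 15 such fits, HSPA1B passed in 13 for each comparison, HSPA1A in 10 for each, PPP1R3D in 7 for day 3 and 9 for day 14, H2BC26 in 7 and 8, OSM in 9 for day 14 and DNAJA4 in 5 for day 14. In the 11 animals without 7, 8, 11 and 15, HSPA1A did not pass although its log2 ratios were -2.02 for day 3 and -1.90 for day 14 vs. day 0. PPP1R3D had ratios of -1.40 and -0.87, H2BC26 of -1.51 and -1.28, and OSM of -1.34 for day 14, and none of them passed (limma adjusted p = 1.0 for each).

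The spreads were also taken after the mean levels of the neutrophil and erythroid lists had been regressed out within each day. For day 14 vs. day 0, HSPA1B (log2 ratio -2.44, limma adjusted p = 0.00432), HSPA1A (-1.82, adjusted p = 0.0204) and DNAJA4 (-2.21, adjusted p = 0.0204) still passed. OSM (-1.61, adjusted p = 0.492) and PPP1R3D (-1.45, adjusted p = 0.492) kept a negative ratio and did not pass. H2BC26 had a log2 ratio of 0.03 (adjusted p = 0.997), so that no narrowing was left. For day 3 vs. day 0, HSPA1A and HSPA1B passed (adjusted p = 0.0139 for each), and PPP1R3D (-1.38, adjusted p = 0.721) and H2BC26 (-0.25, adjusted p = 0.99) did not. Whether the genes differ from each other in this was not tested. On the FPKM as deposited, without scaling between libraries, HSPA1B and HSPA1A passed both comparisons with day 0, whereas DNAJA4 (log2 ratio -1.34, adjusted p = 0.517), OSM (-1.59, 0.265), PPP1R3D (-0.91, 0.612) and H2BC26 (-1.14, 0.383) did not pass for day 14 vs. day 0. For day 3 vs. day 0, PPP1R3D (-1.01, adjusted p = 0.864) and H2BC26 (-1.38, adjusted p = 0.625) did not pass either.

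The neutrophil and inflammatory gene lists had their largest spread in the field. The 31 measured neutrophil granule and receptor genes had a median SD of 1.52, 0.989 and 0.82 on days 0, 3 and 14, and 25 of them were among the widest 5% of genes on day 0, against 17 on day 3 and 11 on day 14. All 31 had a lower SD on day 14 than on day 0, 17 of them at an unadjusted p under 0.05 and none at an adjusted one, beside 65.3% of all genes with a lower SD and 9.35% narrower at that p. The 17 became 7 without animal 11 and 10 without animal 7. The list mean on day 0 was 2.62 above the median animal in animal 15, 2.39 in animal 7 and 2.38 in animal 11, and 1.56 below it in animal 14. On day 3 animal 3 was the highest, 1.79 above the median, and animal 10 the lowest, 2.19 below it. On day 14 animal 10 was again the lowest, 1.71 below. Without animals 7, 8, 11 and 15 the median SD of the list was 1.03, 1.15 and 0.782 on days 0, 3 and 14, and no member was narrower on day 3 and 1 on day 14 than on day 0 at an unadjusted p under 0.05.

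Of the 10 widest named genes on day 0, 6 belonged to neutrophil granules. These genes were picked for a large SD on day 0, which by itself favours lower SDs on the later days. SMIM24, also among the 10, and ADIRF went the other way, with SDs of 2.906 and 2.711 on day 0 and 3.298 and 3.401 on day 14. CRISP3, LCN2, LTF and MMP8 are stored in the later granules of maturing neutrophils, and DEFA1, a defensin with close copies that can share its reads, in the early ones. CRISP3 ranged from 0.188 to 147 FPKM on day 0 (SD 3.29), from 0.293 to 120 FPKM on day 3 (SD 2.55) and from 0.0889 to 8.4 FPKM on day 14 (SD 1.57). Animals 5, 11, 15, 7 and 2 were high on day 0, while animal 3 was the highest on day 3. LCN2 (lipocalin 2) ranged from 0.815 to 508 FPKM on day 0, highest in animal 15, and from 0.179 to 9.99 FPKM on day 14. MMP8 (neutrophil collagenase) ranged from 1.39 to 406 FPKM on day 0 and from 0.346 to 8.6 FPKM on day 14. LTF (lactoferrin) reached 229 FPKM in animal 5 on day 0, 359 FPKM in animal 3 on day 3 and 15.3 FPKM in animal 8 on day 14. PGLYRP1, a granule protein that binds bacterial cell walls, and ORM1, an acute phase protein, had SDs of 2.55 and 2.72 on day 0 and of 1.22 and 1.05 on day 14. PRG2 encodes the major basic protein of eosinophils, and its SD was 2.91, 3.0 and 1.64 on days 0, 3 and 14. None of these passed the adjusted test. The share of the variance that lay between animals was 6.4% for CRISP3, 20.9% for LCN2, 7.2% for MMP8 and 0% for LTF.

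The 21 measured NF-kB and inflammatory cytokine genes had a median SD of 0.863, 0.487 and 0.613 on days 0, 3 and 14. At an unadjusted p under 0.05, 10 were narrower on day 3 and 8 on day 14 than on day 0 (8.44% and 9.35% of all genes were), and OSM alone passed the adjusted test, for day 14. These counts were 5 and 5 without animal 7, 6 and 5 without animal 11, 6 and 6 without animal 15, and 2 and 1 without animals 7, 8, 11 and 15. On day 0 the list mean was 1.34 above the median animal in animal 15, 1.205 in animal 11, 1.13 in animal 7, 0.98 in animal 2, 0.76 in animal 8 and 0.68 in animal 13. Of these, animals 7, 11 and 15 are also the day 0 libraries that stood apart, and the neutrophil list was high in the same animals. With the neutrophil and erythroid means regressed out, the median SDs of the inflammatory list were 0.572, 0.315 and 0.272, and 2 and 4 genes were narrower on day 3 and day 14 at an unadjusted p under 0.05. PTGS2, the inducible cyclooxygenase, ranged from 6.09 to 159 FPKM on day 0, from 2.75 to 21.7 on day 3 and from 1.9 to 23.1 on day 14. SOCS3, a feedback inhibitor of cytokine signaling, ranged from 5.88 to 101 FPKM on day 0, from 4.47 to 19.1 on day 3 and from 2.77 to 12.9 on day 14. Neither passed the adjusted test. JUNB and CEBPD, transcription factors of the immediate early and of the glucocorticoid-induced lists, had SDs of 0.993 and 1.102 on day 0, 0.432 and 0.45 on day 3, and 0.40 and 0.516 on day 14. Over their whole lists the median SD was 0.617, 0.432 and 0.40 for the 19 immediate early genes and 0.597, 0.411 and 0.46 for the 18 glucocorticoid-induced genes, of which 3 and 5 were narrower on day 3 and 6 and 4 on day 14 than on day 0 at an unadjusted p under 0.05, beside 8.44% and 9.35% of all genes. For day 3 the 3 immediate early genes became 1 without animal 7 or 11, and the 5 glucocorticoid-induced genes became 2 without animal 11 or 15 and 3 without animal 2, 7, 9 or 13. Without animals 7, 8, 11 and 15 together, none of either list was left for day 3, and 1 and 0 for day 14.

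**Figure D3:**
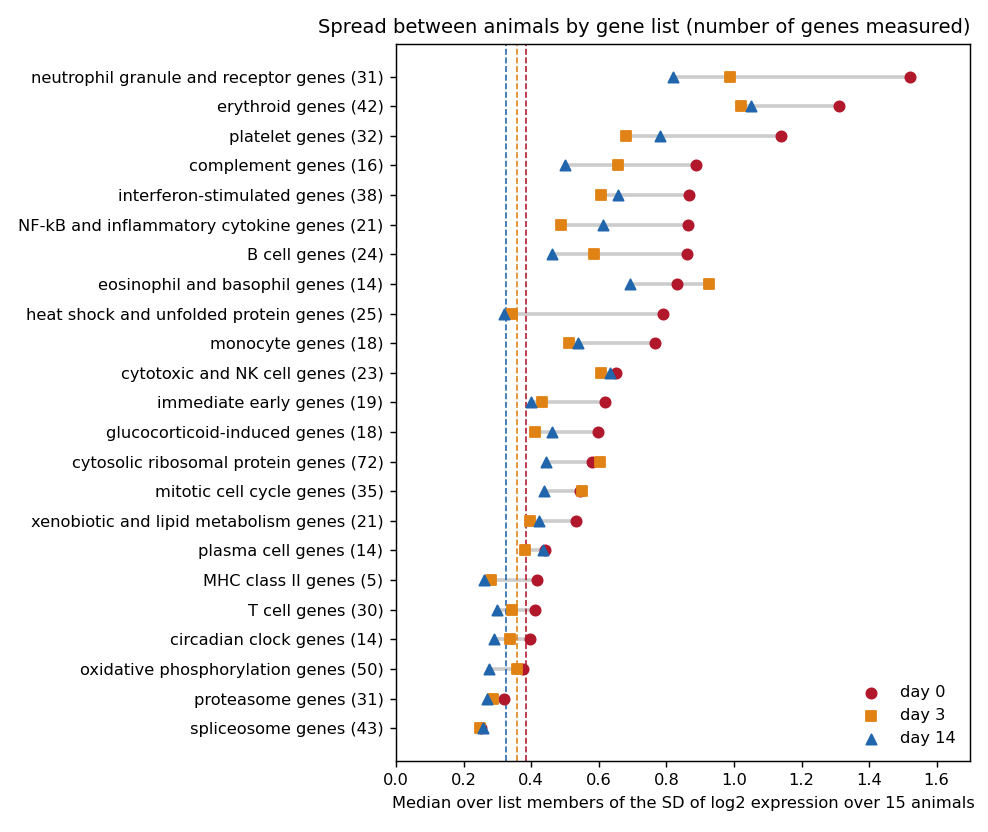
Median over the measured members of each list of the SD of log2 expression over 15 animals (x axis), on day 0 (circles), day 3 (squares) and day 14 (triangles), with dashed lines at the median of all genes on each day and the number of genes measured in brackets. The neutrophil list lies farthest right on day 0 at 1.52, and the heat shock list moves from 0.791 on day 0 to 0.344 and 0.318, close to the median of all genes.

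Other blood cell lists differed in when they were wide. The 32 platelet genes had a median SD of 1.14, 0.68 and 0.78 on days 0, 3 and 14, and 17, 6 and 3 of them were among the widest 5% of genes. On day 0 the list was highest in animal 13 (2.15 above the median animal), animal 14 (1.60) and animal 15 (1.13), and lowest in animal 9 (1.02 below). ITGA2B, the alpha subunit of the platelet fibrinogen receptor, ranged from 3.04 to 84.2 FPKM on day 0, from 19.3 to 154 on day 3 and from 9.83 to 56.0 on day 14 (SD 1.48, 0.71 and 0.765). TAGLN, an actin-binding protein, had an SD of 1.41, 1.80 and 0.821 on days 0, 3 and 14, and of 0.907 on day 0 without animal 13. At an unadjusted p under 0.05, 9 platelet genes were narrower on day 3 and 3 on day 14 than on day 0 (28.1% and 9.38% of the 32, beside 8.44% and 9.35% of all genes). These counts were 3 and 0 without animal 14 and 5 and 1 without animal 13, and they ranged from 3 to 12 and from 0 to 8 over the animals left out. The median SDs without animals 7, 8, 11 and 15 were 1.19, 0.713 and 0.749.

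Erythroid genes were wide on every day. The median SD of 42 genes was 1.31, 1.02 and 1.05 on days 0, 3 and 14, and 28, 25 and 28 of them were among the widest 5%. In the comparisons with day 0, 1 of them was narrower on day 3 and none on day 14 at an unadjusted p under 0.05, and 2 were wider on day 14 (all genes: 8.44% and 9.35% narrower, 1.59% wider on day 14). Leaving out 1 animal gave 0 to 2 narrower genes in each comparison, and without scaling between libraries 4 and 10 were narrower. The red cell anion exchanger SLC4A1 ranged from 2.96 to 275 FPKM on day 0, from 49.5 to 774 on day 3 and from 66.4 to 2406 on day 14. The animals changed places: the list was highest in animal 7 on day 0 and day 3 and in animal 15 on day 14, and lowest in animals 9, 8 and 13 in turn.

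The 24 B cell genes had a median SD of 0.861, 0.586 and 0.461 on days 0, 3 and 14. All 24 had a lower SD on day 14 than on day 0, 8 of them at an unadjusted p under 0.05 and none at an adjusted one, beside 65.3% of all genes with a lower SD and 9.35% narrower at the unadjusted p. The 8 became 2 without animal 7 and 4 without animal 15. The list was lowest on day 0 in animals 7, 11, 10 and 15 (1.88, 1.17, 1.07 and 1.04 below the median animal), and without animals 7, 8, 11 and 15 the median SDs were 0.612, 0.463 and 0.424, with 1 gene narrower on day 14 at an unadjusted p under 0.05. CD24, which B cells share with neutrophils, had an SD of 1.54 on day 0 and 0.44 on day 14, with its highest day 0 value of 163 FPKM in animal 15. CD72, a B cell inhibitory receptor, ranged from 2.2 to 45.4 FPKM on day 0 and from 5.26 to 22.2 FPKM on day 14. T cell genes were less spread, with a median SD of 0.41, 0.344 and 0.299 over 30 genes, and none was narrower at an unadjusted p under 0.05 in either comparison with day 0. The 14 plasma cell genes had median SDs of 0.44, 0.381 and 0.434, and 2 of them were narrower and 2 wider on day 14 than on day 0 at an unadjusted p under 0.05, beside 9.35% and 1.59% of all genes. Leaving out 1 animal gave 1 to 2 narrower plasma cell genes. MZB1, a chaperone for antibody assembly, had an SD of 0.451 on day 0 and 0.749 on day 14.

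**Figure D4:**
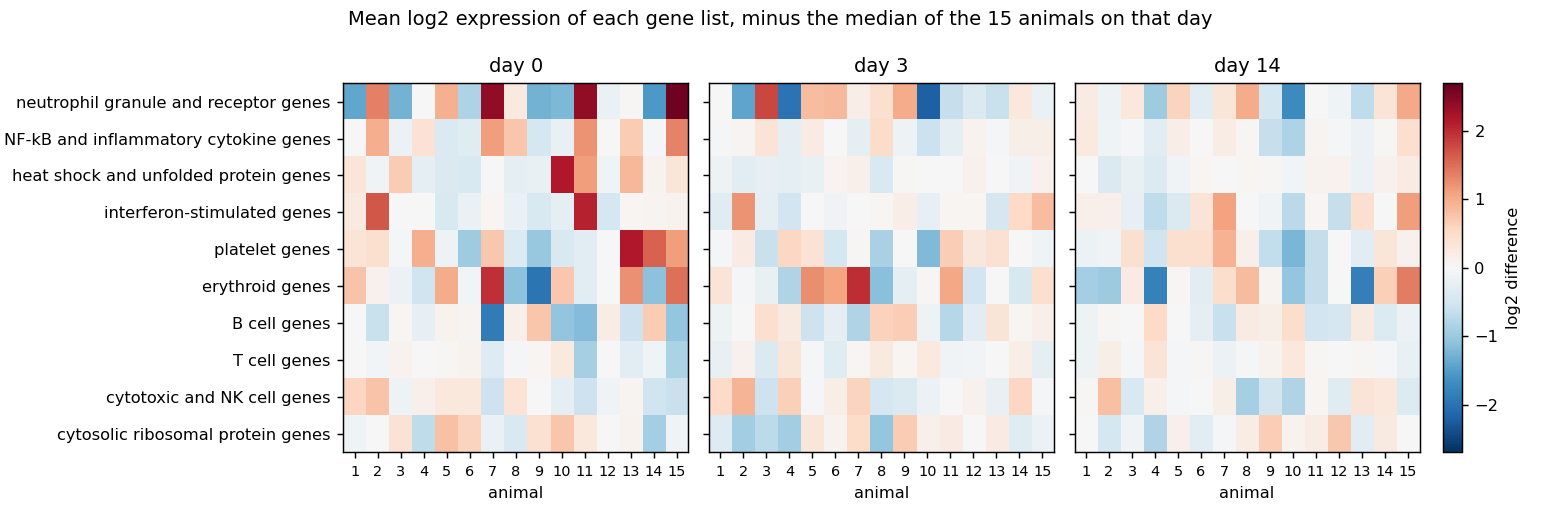
Mean log2 expression of the members of 10 gene lists (rows) in each animal (columns 1 to 15) minus the median of the 15 animals on that day, in 3 panels for day 0, day 3 and day 14, with red above and blue below the median. On day 0 the neutrophil list is highest in animals 15, 7 and 11, the heat shock list in animal 10 and the interferon list in animals 11 and 2.

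For interferon-stimulated genes the highest animals differed between the days. The 38 genes had a median SD of 0.868, 0.606 and 0.656 on days 0, 3 and 14, and 9, 6 and 9 of them were among the widest 5%. On day 0 the list mean was 2.09 above the median animal in animal 11 and 1.67 in animal 2, and no other animal was more than 0.24 above it. On day 3 animals 2 and 15 were the highest (1.203 and 0.84 above), and on day 14 animals 15 and 7 (1.12 and 1.09 above). IFI44 had 1081 FPKM in animal 11 and 451 FPKM in animal 2 on day 0 against a median of 20.5 FPKM, and 310 FPKM in animal 15 on day 14 against a median of 42.2 FPKM. HERC5, an enzyme that attaches the interferon-induced modifier ISG15 to proteins, ranged from 2.03 to 73.3 FPKM on day 0, from 2.82 to 41.4 on day 3 and from 1.94 to 61.2 on day 14. In each comparison with day 0, 1 of the 38 genes was narrower at an unadjusted p under 0.05, beside 8.44% and 9.35% of all genes. Leaving out 1 animal gave 0 to 3 genes for day 3, with 0 without animal 11, 3 without animal 3, 13 or 15, and 2 without animal 1, 2, 5, 6, 7, 8, 9 or 10, and 1 to 2 for day 14, with 2 without animal 4 or 10.

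Lists of basic cell machinery differed in their spread. The 43 spliceosome genes had a median SD of 0.251, 0.247 and 0.257 on days 0, 3 and 14, the 31 proteasome genes 0.318, 0.288 and 0.269, and the 50 oxidative phosphorylation genes 0.375, 0.358 and 0.274. The 72 cytosolic ribosomal protein genes were more spread than the median of all genes, at 0.579, 0.603 and 0.444. Mitotic cell cycle genes had 0.544, 0.55 and 0.437. The 14 circadian clock genes had 0.397, 0.338 and 0.289, and NFIL3 reached an SD of 0.848 on day 0 against 0.344 and 0.435 later. Of these 14 genes, 4 were narrower on day 3 and 5 on day 14 than on day 0 at an unadjusted p under 0.05, beside 8.44% and 9.35% of all genes. Leaving out 1 animal gave 1 to 5 and 2 to 7 narrower clock genes. Eosinophil and basophil genes had median SDs of 0.831, 0.926 and 0.692, and no member passed an unadjusted p of 0.05 for day 3 vs. day 0. Without animal 15 these medians were 0.791, 0.727 and 0.632, so the order of day 0 and day 3 turned. The 5 genes that varied least over all days were S100PBP, SMEK1, IST1, SMAP1 and GABPB1. S100PBP, for example, ranged from 9.31 to 11.3 FPKM on day 0, from 7.96 to 10.6 on day 3 and from 8.07 to 10.6 on day 14.

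In the limma test no gene was wider on a later day at an adjusted p under 0.05 over all 15 animals. Some alternatives did call wider genes over 15 animals: for day 3 vs. day 0, 8 with deviations from the mean and 7 with the Pitman-Morgan test, and for day 14 vs. day 0, 27 and 35 with these tests, 6 with the RNA integrity number regressed out and 1 among genes with a mean FPKM of at least 5. The genes with the lowest unadjusted p values in that direction were picked after their values were seen. SH3GL1, an endocytosis gene, ranged from 5.54 to 9.56 FPKM on day 0 and from 5.19 to 24.1 on day 14 (SD 0.219 and 0.619, limma adjusted p = 0.0726). SF3A2, a spliceosome subunit, ranged from 3.27 to 7.6 FPKM on day 0 and from 3.68 to 70.3 on day 14 (SD 0.375 and 1.095, adjusted p = 0.116), and CDYL, a chromatin reader, from 6.29 to 12.7 and from 6.16 to 28.3 FPKM (SD 0.256 and 0.706, adjusted p = 0.0932). Animal 15 was the highest of the 15 on day 14 for all 3 genes. Without animals 7, 8, 11 and 15, SH3GL1 (SD 0.089 on day 0 and 0.532 on day 14, limma adjusted p = 0.0164, 11 animals) and LRRC20 (0.139 and 0.746, adjusted p = 0.0462) were wider on day 14.

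Of the 648 genes in the widest 5% on day 0, 331 (51.1%) were also in the widest 5% on day 14, and 290 (44.8%) were there on all days. A difference that lasts gives an animal the same rank each time, which was tested with a limma F-test of the animal terms beside the day. Of the 12968 genes, 3912 (30.2%) had an animal effect at an adjusted p under 0.05, and 212 of the 290 genes wide on all days (73.1%) did. The count over all genes was 2365 without animals 7, 8, 11 and 15, and 5530 without scaling between libraries. The 6 genes whose spread narrowed were not among these 3912 genes (adjusted p from 0.167 to 0.956). They had been called for a spread that was large on day 0 and small later. This fit counts spread found on day 0 alone as unexplained variance. The test could therefore hardly find an animal effect in them, and it does not show whether their animals kept their ranks.

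The share of genes with an animal effect was counted in each list, and differences between lists were not tested. Of the 31 neutrophil genes 9 had an animal effect (29.0%), of the 25 heat shock genes 4 (16%) and of the 21 inflammatory genes 4 (19%), beside 30.2% of all genes. Spread found on day 0 alone adds to the unexplained variance of this fit. Low shares in lists wide on that day are therefore no measure of a lack of lasting differences. The erythroid list (13 of 42, 31%) and the interferon list (13 of 38, 34.2%) were, like the neutrophil list, near the share of all genes. Of the 18 monocyte genes it was 15 (83.3%), of the 23 cytotoxic and NK cell genes 18 (78.3%), of the 72 cytosolic ribosomal protein genes 52 (72.2%), of the 16 complement genes 9 (56.2%), of the 24 B cell genes 13 (54.2%), of the 30 T cell genes 16 (53.3%) and of the 32 platelet genes 16 (50%). In contrast, 1 of 35 mitotic cell cycle genes had an animal effect (2.86%). Cytotoxic and NK cell genes were highest in animal 2 on all 3 days (0.78, 0.92 and 0.81 above the median animal). Ribosomal protein genes were low in animal 4 on each day (0.69, 0.94 and 0.81 below the median animal).

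The 10 genes with the largest share of variance between animals, among those with a gene symbol, a mean FPKM of at least 5 and an SD of at least 1 on every day, were APOL4, SMIM24, NPTX2, ZBP1, ADIRF, C4BPA, GNLY, CA3, ANKRD6 and CD36. They were chosen for this share, so their values are a description. Genes outside these limits had shares as large, for example 98.9% for LOC103221786 and 97.7% for ISLR, both picked after their values were seen. For several of the 10 genes the same animals lay far above or below the rest on every day. SMIM24, a small membrane protein, had 70.6, 127 and 135 FPKM in animal 1 and 58.7, 49.4 and 346 FPKM in animal 15 on days 0, 3 and 14, and no more than 0.944 FPKM in the other 13 animals on any day. APOL4, an apolipoprotein L, had no more than 0.875 FPKM in animals 1, 3 and 12 on any day and at least 4.18 FPKM in the other 12. ADIRF, first described as a regulator of fat cell formation, had no more than 0.274 FPKM in animals 2, 10, 11 and 15, and its lowest value in the other 11 was 1.07 FPKM, in animal 14 on day 0. The shares of variance between animals were 95.1% for SMIM24, 96.1% for APOL4 and 87.3% for ADIRF.

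C4BPA, a chain of the inhibitor C4b-binding protein of the complement system, had no more than 0.327 FPKM in animals 2 and 8 on any day, and ranged from 0.415 FPKM in animal 13 to 33.5 FPKM in animal 4 in the rest. ANKRD6, an ankyrin repeat protein, was high in animals 2, 5, 6 and 10 on every day (3.0 to 38.7 FPKM). In animal 8 it was at 1.26, 4.34 and 46.7 FPKM on days 0, 3 and 14, and the other 10 animals had 2.33 FPKM or less. GNLY (granulysin, a killer cell granule protein) was highest in animals 9 and 15 on day 0 (16.9 and 14.9 FPKM) and in animals 15, 9 and 7 on day 14 (40.3, 36.9 and 26.8 FPKM). CA3, a carbonic anhydrase known from muscle, was highest in animals 5 and 3 on each day, at 29.7 and 10.6 FPKM on day 0 and 111 and 103 FPKM on day 14. The muscle genes ACTA1, CKM and MB had mean FPKM of 0.34, 0.0217 and 0.03, while DES and TNNT3, also known from muscle, had 3.44 and 1.23. NPTX2 (neuronal pentraxin 2) was at 2.01 FPKM or less in animals 3 and 12 on each day and at 2.99 FPKM or more in the others. ZBP1, a sensor of Z-form nucleic acids, was lowest in animals 5, 11 and 4 on day 0 (0.386, 0.711 and 0.794 FPKM), and CD36, a scavenger receptor of monocytes and platelets, was highest in animal 11 on each day (215, 38.5 and 26.3 FPKM).

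**Figure D5:**
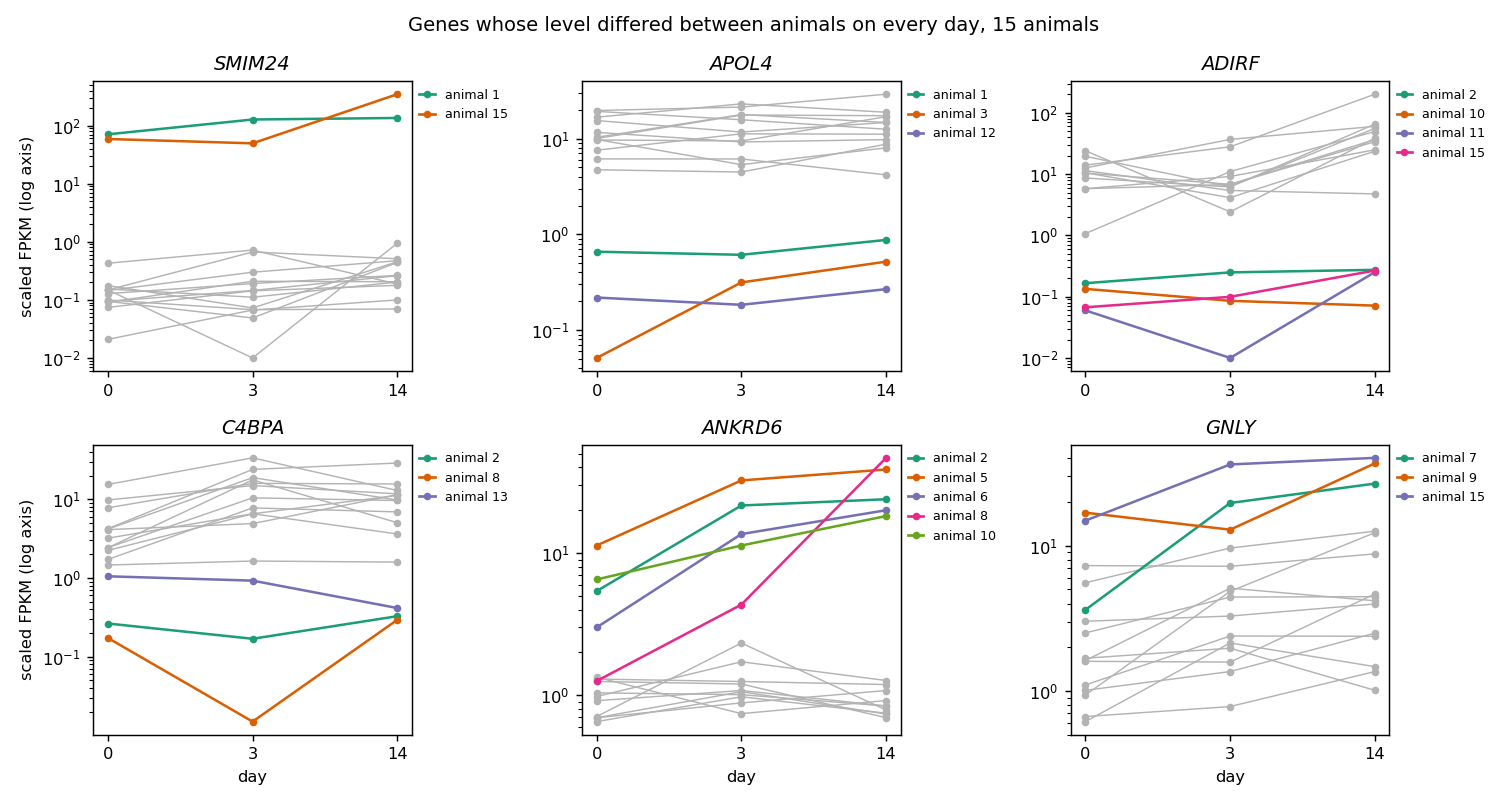
Scaled FPKM (y axis, log scale) on day 0, day 3 and day 14 (x axis, not to scale in time) for 6 of these 10 genes, with 1 line per animal and the animals that lie apart coloured. Values of 0 are drawn at 0.01. SMIM24 is high in animals 1 and 15, APOL4 low in animals 1, 3 and 12, and ADIRF low in animals 2, 10, 11 and 15 on every day.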

How the data were processed

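Globin- and ribosomal-RNA-depleted, stranded RNA-seq libraries of whole blood from 15 animals on 3 days (45 libraries) were used. Per the labels and the study's methods, reads were demultiplexed with bcl2fastq 2.17, aligned with STAR to the Chlorocebus_sabeus 1.1 assembly and counted per gene with HTSeq. The authors deposited FPKM values, 1 column per library, from which whole fragment counts could be recovered at a tolerance of 0.05 fragments for 100% of the positive values. Library totals ranged from 13216280 to 31469337 fragments. FPKM divides by gene length and depth, so a few very abundant genes can lower all others in a library, and TMM factors (0.523 to 1.386), computed from the values, were applied. Counting errors cover sampling of fragments only.

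Genes with a mean FPKM of at least 1 were kept. Spread was the SD of log2(scaled FPKM + 0.1) over 15 animals, so ratios of low genes are understated. Days were compared with limma 3.58.1 (R 4.3.3) on absolute deviations from the day median, divided by the gene's mean deviation, with Benjamini-Hochberg adjustment over all genes at 0.05. SEs of log2 SD ratios came from a jackknife over animals. The median log2 ratio was tested by exchanging days within animals, and lasting differences by a limma F-test of animal terms beside the day. Python 3.11.15, numpy 2.4.6, pandas 2.3.3 and numba 0.67.0 were used, and the tests were checked on simulated data.

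The design pairs the libraries, since the same animals were sampled on each day. Deviations of same-animal libraries on different days correlated with a mean r of 0.342 (-0.176 to 0.714, 45 pairs), against -0.024 for different animals. Genes were named, among those with a mean FPKM of at least 5 and a gene symbol, as the 10 widest on each day, the 10 called genes with the largest ratio per comparison and direction, up to 3 called members of each list (otherwise its 2 widest), the 10 with the largest variance share between animals and an SD of at least 1 on every day, and the 5 narrowest. Others are said to be picked after their values were seen. The members and the 24 gene lists were chosen with earlier results of these data known. Gene symbols are those of the files, except that 312 of the tested genes, listed by number only, were given the current symbol of a RefSeq gene table. Of the tested genes 11032 (85.1%) matched that table, which is of another assembly, so no coordinates are given. Alternatives changed the scaling, pseudocount, filter, test, covariates and animals.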

Additional observations from a re-analysis of the deposited data

How the results depend on the processing

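The counts of genes with a different spread were small and depended on the test and on single animals. Beside 4 genes for day 3 vs. day 0 and 6 for day 14 vs. day 0, the fit with animal as a replicate block gave 2 and 3, deviations from the mean 255 and 449 (8 and 27 of them wider on the later day), the Pitman-Morgan paired test 55 and 378 (7 and 35 wider), and the RNA integrity number regressed out 22 and 173 (0 and 6 wider). Without a filter on mean FPKM both counts were 0 (2142 and 2121 genes at an unadjusted p under 0.05), and without animals 7, 8, 11 and 15, an alternative chosen after seeing the data, they were 1 and 5 (0 and 2 wider). For day 14 vs. day 0 a pseudocount of 1 gave 15 and a mean FPKM of at least 5 gave 46 (1 wider). A pseudocount of 0.01 gave 3 and 5, and with it DNAJA4 for day 14 (limma adjusted p = 0.0748) and PPP1R3D for day 3 (0.0541) did not pass. For day 14 vs. day 3 the Pitman-Morgan test gave 1 gene, wider on day 14, and the other alternatives 0. The causes were not tested. Leaving out 1 animal at a time gave 0 to 10 genes for day 3 vs. day 0, 0 to 135 for day 14 vs. day 0 and 0 to 0 for day 14 vs. day 3.

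The median log2 ratio of spreads did not pass in any alternative. It turned to 0.012 (day 14 vs. day 0) and 0.138 (day 14 vs. day 3) without scaling between libraries, to 0.144 (day 14 vs. day 3) without a filter, and to 0.009 (day 14 vs. day 3) without animal 8. Leaving out 1 animal gave -0.238 to -0.04 for day 3 vs. day 0, -0.24 to -0.114 for day 14 vs. day 0 and -0.152 to 0.009 for day 14 vs. day 3. Beside 3912 genes with an animal effect, no scaling between libraries gave 5530, the RNA integrity number regressed out 3290, no filter 4552 (more genes were tested), a mean FPKM of at least 5 gave 2489 (fewer genes were tested), the 11 animals without 7, 8, 11 and 15 gave 2365, and leaving out 1 animal gave 2864 to 4281. The ratio of H2BC26 for day 14 vs. day 0 turned to 0.026 with neutrophil and erythroid means regressed out. Depth limits the genes with few fragments, whose spread holds more counting error.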

Other observations

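Other lists with a wider spread on day 0 held genes of monocytes, complement and lipid metabolism. The 18 monocyte genes had median SDs of 0.765, 0.511 and 0.539 on days 0, 3 and 14. On day 0 the list was highest in animals 11, 15 and 7 (1.52, 1.05 and 0.73 above the median animal), whose libraries stood apart that day. At an unadjusted p under 0.05, 2 of the 18 were narrower on day 3 and 4 on day 14 than on day 0, beside 8.44% and 9.35% of all genes. Leaving out 1 animal gave 1 to 4 and 2 to 6 narrower monocyte genes. The 16 complement genes had median SDs of 0.888, 0.658 and 0.5, with 3 and 4 of them narrower on day 3 and day 14 than on day 0 at an unadjusted p under 0.05, beside 8.44% and 9.35% of all genes. The 3 became 1 without animal 11 or 15, and without animals 7, 8, 11 and 15 together the counts were 0 and 1. Complement component C5 ranged from 11.9 to 522 FPKM on day 0 and from 253 to 1585 FPKM on day 14. The 21 xenobiotic and lipid metabolism genes had median SDs of 0.532, 0.396 and 0.423, and ACSL1, which activates fatty acids, ranged from 37.8 to 514 FPKM on day 0 and from 12 to 94.2 FPKM on day 14. The 5 measured MHC class II genes had median SDs of 0.416, 0.282 and 0.26, but 3 of the 5 had a higher SD on day 3 than on day 0. None of these genes passed the adjusted limma test.

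Among the 224 genes that were in the widest 5% on day 0 alone, PFKFB2 and PLAUR were picked after their values were seen. PFKFB2, an enzyme that sets the rate of glycolysis, ranged from 1.05 to 131 FPKM on day 0, highest in animal 15, and from 1.09 to 7.43 FPKM on day 14 (limma adjusted p = 0.148). PLAUR, the urokinase receptor of activated myeloid cells, ranged from 2.01 to 137 FPKM on day 0, highest in animal 7, and from 1.72 to 7.95 FPKM on day 14 (limma adjusted p = 0.0975). The libraries of animals 15 and 7 stood apart on day 0. In the widest 5% on day 14 alone were 195 genes, of which ZER1 and MTCH1 were picked after their values were seen. Their SDs were 0.93 and 0.603 on day 0 and 1.279 and 1.183 on day 14 (limma adjusted p = 0.836 and 0.686). Animal 15 was the highest on day 14 for both.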
